A study of Mus musculus with 6 samples.

Results

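The sarcomeric myosin genes examined here were 10 genes of striated muscle myosin, 6 heavy chains (Myh1, Myh2, Myh3, Myh4, Myh7 and Myh8) and 4 light chains (Myl1, Myl4, Mylpf and Myl6b). They were found as all probe sets annotated to 1 of these symbols alone, which gave 14 probe sets of the 34945 that carried a single symbol, and 10 of 18193 genes. Another 2 probe sets were annotated jointly to Myh7 and Myh6 and were left out. RNA came from C2C12, an established mouse myoblast line whose cells can fuse into contracting myotubes, and was hybridised to Affymetrix mouse expression arrays, 1 array per sample. There were 3 untreated samples, kept for 72 h in basal DMEM, and 3 samples kept for the same time in DMEM with 50 mM sodium pyruvate. Both groups had 10% fetal bovine serum, 4 mM glutamine and 1% antibiotics, and both were described as undifferentiated. The DMEM of the pyruvate group was made up from a formulation lacking pyruvate, whereas that of the untreated group was not described in this respect, so untreated cells may also have had some. No control for the added sodium or osmolality was analysed here, and the labels do not say whether replicates were separate cultures, so p-values reflect the spread among these arrays, which may be technical.

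Muscle myosin is a hexamer of a pair of heavy chains, which carry the motor and the rod that packs into thick filaments, and 2 kinds of light chain, essential and regulatory, wrapped around the neck of each motor. The heavy chain genes are switched in sequence: Myh3 (embryonic) and Myh8 (perinatal) are typical of forming and regenerating fibres, Myh2, Myh1 and Myh4 encode the adult fast IIa, IIx and IIb chains, and Myh7 encodes the slow and cardiac chain. Among light chains, Mylpf is the fast regulatory chain, Myl1 the fast essential chain, Myl4 an essential chain of embryonic muscle and of the atria, and Myl6b a slow essential chain. These genes are normally induced when myoblasts leave the cell cycle and differentiate.

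All 4 myosin genes that passed the signal filter were lower in pyruvate cells on their brightest probe set, and the adult fast IIa and IIb, perinatal and slow heavy chains had signals of at most 15.0 in both groups. Mylpf fell to 16.5% of its untreated mean, Myh3 to 18.0%, Myl1 to 29.7% and Myl4 to 36.0%. Signals are MAS5 intensities, 1 value per probe set and array, which the authors had scaled to a common trimmed mean of 150.0. Changes were fitted as log2(signal + 16) with limma for the probe sets whose mean was at or above the median of all probe sets that were not controls (5.53 on that scale, a signal near 30.3). Of the 14 myosin probe sets 5 entered that test, for 4 genes, and 4 were called lower at a Benjamini-Hochberg adjusted p under 0.05, where 15.9% of all 22519 probe sets tested were called lower and 32.2% in either direction. No myosin probe set was called higher by limma (0 of 5, and 0 at an unadjusted p under 0.05), against 16.3% of all probe sets tested. Myh3 and Myl4 passed the filter only through their untreated arrays, so their counts among the calls carry no weight of their own.

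**Figure D1:**
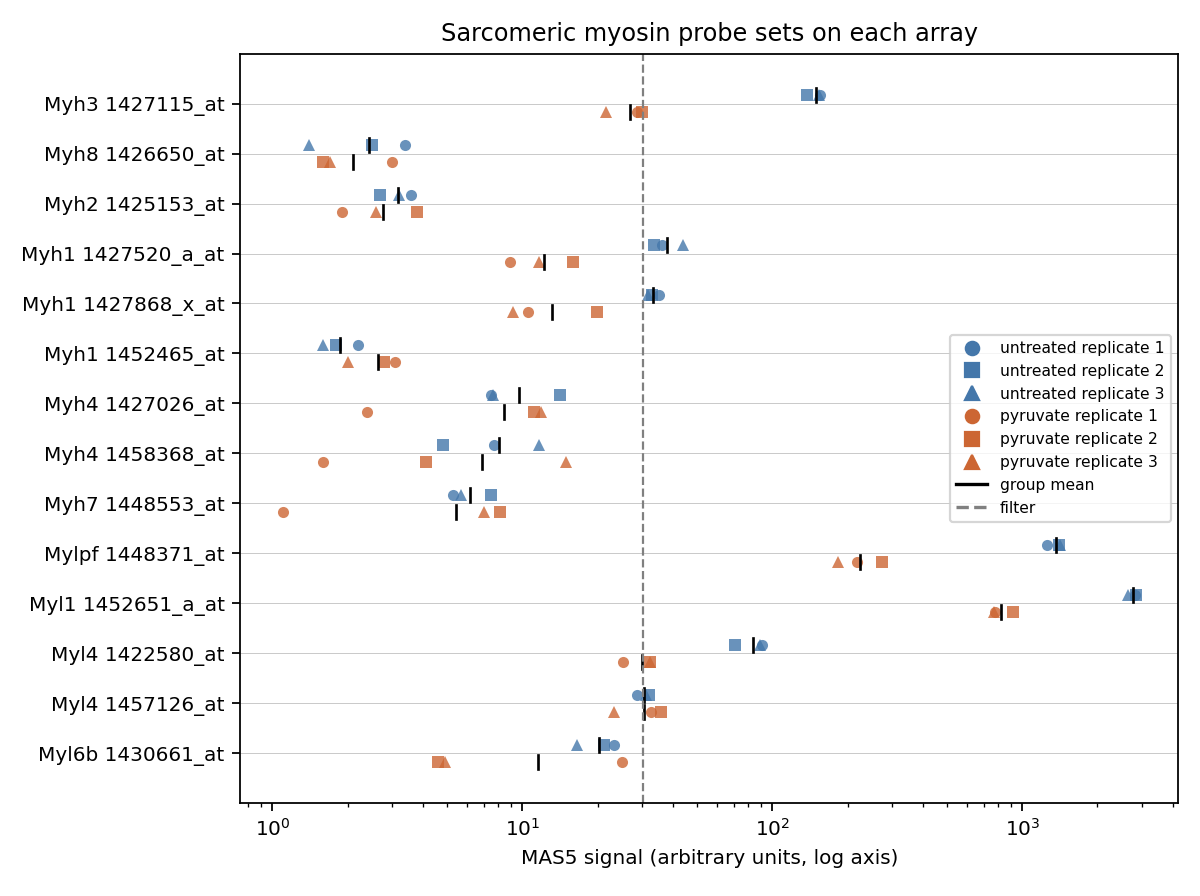
MAS5 signal of each of the 14 myosin probe sets (log axis, arbitrary units), with untreated arrays in blue and pyruvate arrays in orange, marker shape for the replicate number, black ticks for group means (n = 3) and a dashed line at the filter signal of about 30.3. The groups are apart for Myh3, Mylpf, Myl1, the brighter Myl4 probe set and 2 Myh1 probe sets, and they overlap for the other 8.

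The regulatory light chain was the myosin transcript with the deepest fall. Mylpf (probe set 1448371_at) had signals of 1257.1, 1400.7 and 1421.8 on the untreated arrays and 217.7, 273.8 and 182.4 on the pyruvate arrays. The lowest untreated array was thus 4.59 times the highest pyruvate array. The log2 change was -2.53 (SE 0.11, 95% interval -2.77 to -2.29, limma adjusted p = 7.6e-08), the 7th lowest of the 22519 probe sets tested. Even so, Mylpf remained well above the filter in pyruvate cells, with a mean of 224.6 ± 46.1 (SD, n = 3) and at least about 77.5% of probe sets below it on each pyruvate array.

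The fast essential light chain Myl1 (1452651_a_at) had the highest signal of the myosin probe sets in either group, although signals of different probe sets do not compare transcript amounts. Its untreated signals were 2820.2, 2845.2 and 2660.8, and its pyruvate signals 778.6, 919.7 and 771.6. The spread within a group was small beside the gap between groups, and the mean went from 2775 ± 100.0 to 823 ± 83.6, a ratio of 3.37. The log2 change was -1.74 (SE 0.07, limma adjusted p = 3.5e-08). Both light chains were bright enough for the pseudocount to matter little: over pseudocounts of 1 to 64 the Myl1 change went from -1.76 to -1.68 and the Mylpf change from -2.61 to -2.31.

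The embryonic heavy chain Myh3 (1427115_at) was the brightest heavy chain probe set. It read 154.6, 138.1 and 154.0 on the untreated arrays and 28.7, 30.1 and 21.7 on the pyruvate arrays. Each pyruvate value lay under the filter signal, so the gene went from above about 73.4% of all probe sets to below their median. The log2 change was -1.95 (SE 0.12, limma adjusted p = 9.8e-07), and the ratio of means was 5.55. Because the pyruvate signal is dim, the size depends on the pseudocount: the log2 change was -2.44 with a pseudocount of 1 and -1.23 with 64.

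The 2 probe sets of Myl4, the embryonic and atrial essential chain, disagreed. On 1422580_at the untreated signals of 90.9, 71.1 and 88.9 stood above the pyruvate signals of 25.2, 32.5 and 32.5, with a log2 change of -1.11 (SE 0.13, limma adjusted p = 0.00011), or -0.65 with a pseudocount of 64. On 1457126_at the groups overlapped, at 28.8, 32.0 and 31.3 untreated and 32.8, 35.9 and 23.2 with pyruvate, and the change was -0.01 (95% interval -0.34 to 0.32, limma adjusted p = 0.96). The second probe set lay at the filter itself, with a mean log2 value of 5.54 against the threshold of 5.53. Averaged over both, Myl4 was still called lower, by -0.56 (limma adjusted p = 0.0023).

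The slow essential chain Myl6b (1430661_at) was below the filter, and only in the fit without a filter could it be read. Its signals were 23.3, 21.2 and 16.5 untreated and 25.0, 4.6 and 4.9 with pyruvate. A single pyruvate array, replicate 1, lay above all untreated arrays, and the other 2 lay below them. The log2 change was -0.48 (95% interval -1.10 to 0.15, limma adjusted p = 0.34), and without that array it was -0.80 (adjusted p = 0.021), so 1 array decides the call.

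Among the adult heavy chains, Myh1, the fast IIx chain, was the one with a signal near the filter. On 1427520_a_at it read 36.1, 33.6 and 43.8 untreated and 8.9, 16 and 11.7 with pyruvate, and on 1427868_x_at it read 35.2, 33.0 and 31.9 against 10.5, 19.8 and 9.2. In both probe sets all untreated arrays lay above all pyruvate arrays. Fitted without the filter, where 6.26% of all 45037 probe sets were called lower, their log2 changes were -0.94 (limma adjusted p = 0.0091) and -0.78 (limma adjusted p = 0.027). The first change was -1.58 with a pseudocount of 1 and -0.42 with 64, and stayed called under each of the 11 combined settings tried. The second was -1.35 and -0.34 with the same pseudocounts, and lost its call when any array but pyruvate replicate 2 was left out (adjusted p from 0.073 to 0.096) and with the replicate number as a block (adjusted p = 0.053). The third Myh1 probe set, 1452465_at, stayed between 1.6 and 3.1 on all 6 arrays. An Affymetrix name ending in _x_at marks probes that can also bind other transcripts, and muscle heavy chains are close in sequence, so whether part of the Myh1 signal came from Myh3 or another heavy chain was not tested.

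The remaining heavy chains were not resolved in either group. Across Myh8, Myh2, Myh4 (2 probe sets), Myh7 and the third Myh1 probe set, signals ran from 1.1 to 15.0, and between 3.56% and 34.3% of probe sets on the same array were lower. The single-array values overlapped between groups in all 6 probe sets. Myh8 (1426650_at), the perinatal chain, read 3.4, 2.5 and 1.4 untreated and 3.0, 1.6 and 1.7 with pyruvate. Myh2 (1425153_at) read 3.6, 2.7 and 3.2 against 1.9, 3.8 and 2.6. For Myh4, 1427026_at read 7.5, 14.1 and 7.6 untreated and 2.4, 11.1 and 11.9 with pyruvate. Myh7 (1448553_at) read 5.3, 7.5 and 5.7 against 1.1, 8.1 and 7.0, and the 2 probe sets shared with Myh6 did not exceed 2.9 on any array. Without the filter the log2 changes of these 6 lay between -0.10 and 0.06, with 95% intervals reaching from -0.60 to 0.39 and a lowest limma adjusted p of 0.70. At such signals the added 16 outweighs the reading, so these intervals do not bound a change in the transcripts.

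**Figure D2:**
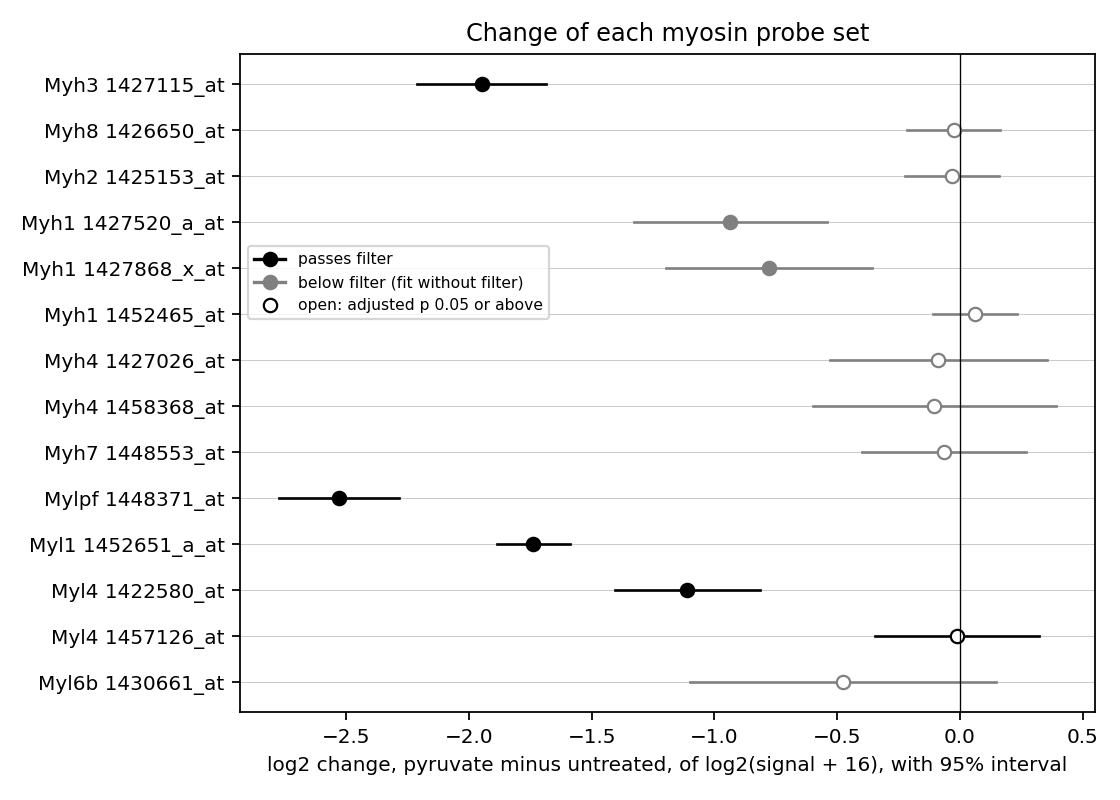
Log2 change with pyruvate of each myosin probe set with its 95% interval from limma, black for the 5 that passed the filter and grey for the 9 below it, read from the fit without a filter, with filled points where the adjusted p is under 0.05. Mylpf lies lowest at -2.53, followed by Myh3, Myl1 and Myl4, and the Myh2, Myh4, Myh7 and Myh8 points lie near 0.

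Over all 14 probe sets fitted without the filter, 6 were called lower and 0 higher by limma (0 at an unadjusted p under 0.05), where 6.26% of all probe sets were called lower and 6.59% higher. The median log2 change was -0.29 over the 14 and -0.0037 over all 45037. Every pyruvate array lay below every untreated array in 6 of the 14, an order that held for 14.8% of all probe sets, and the opposite order held for 0 of the 14 and for 14.6% of all probe sets. Within the pyruvate group replicate 2 was highest, or tied for highest in Myl4, in all 6, while the lowest array was replicate 3 in 4 of them and replicate 1 in the others.

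The size of the fall was then compared between neighbouring genes in the order Mylpf, Myh3, Myl1 and Myl4, from the difference of their log2 values on each array. Mylpf fell by 0.58 more than Myh3 on the log2 scale, and the array differences did not overlap (2.90 to 3.20 untreated, 2.39 to 2.65 with pyruvate). Myl1 fell by 0.63 more than Myl4, again without overlap (4.67 to 5.04 against 4.02 to 4.27). Myh3 and Myl1 overlapped, with a difference of 0.21 in the same sense, and their order turned with a pseudocount of 64. Over pseudocounts of 1 to 64 the difference ran from -0.17 to -1.08 for Mylpf minus Myh3 and from -0.31 to -1.03 for Myl1 minus Myl4, so the sizes rest on that choice. The exact two-sided permutation p was 0.1 for the first 2 pairs and 0.2 for Myh3 and Myl1 (0.15, 0.15 and 0.2 after Benjamini-Hochberg over the 3 pairs). With 3 against 3 arrays no p below 0.1 is possible, so no pair could pass 0.05.

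In the RefSeq annotation Myh3, Myh2, Myh1, Myh4 and Myh8 are 5 consecutive protein-coding genes of a cluster on chromosome 11. The stretch was cut at Myh3 and Myh8, so genes of the cluster beyond these ends were not counted. Within this stretch, untreated signals above the filter came from probe sets annotated to Myh3, at the start of the row, and to Myh1. Whether those Myh1 probe sets also read another heavy chain was not tested. All 10 genes matched RefSeq promoter windows of GRCm38.p6, and the 250 bases before the annotated start are shown 5' to 3' for the 4 genes called lower, and for Myh4, a dim gene of the same cluster, picked because its window held the most motif matches. The window of Myh2, the protein-coding gene next to Myh3, held none of them. Capitals mark E-boxes (CANNTG), the element bound by MyoD and myogenin. The windows lie at chr7:127211358-127211607 (Mylpf, plus strand), chr11:67078050-67078299 (Myh3, plus), chr1:66945057-66945306 (Myl1, minus), chr11:104550413-104550662 (Myl4, plus) and chr11:67237562-67237811 (Myh4, plus).
Mylpf: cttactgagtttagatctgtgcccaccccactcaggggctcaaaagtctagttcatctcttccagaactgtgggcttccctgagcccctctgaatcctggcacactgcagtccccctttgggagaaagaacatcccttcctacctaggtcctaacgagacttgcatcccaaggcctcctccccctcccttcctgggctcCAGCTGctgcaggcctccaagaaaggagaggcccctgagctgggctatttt
Myh3: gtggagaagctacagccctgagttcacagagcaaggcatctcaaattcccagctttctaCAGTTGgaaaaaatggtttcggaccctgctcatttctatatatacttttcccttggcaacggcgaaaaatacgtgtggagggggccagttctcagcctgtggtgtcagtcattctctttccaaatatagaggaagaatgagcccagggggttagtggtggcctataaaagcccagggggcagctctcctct
Myl1: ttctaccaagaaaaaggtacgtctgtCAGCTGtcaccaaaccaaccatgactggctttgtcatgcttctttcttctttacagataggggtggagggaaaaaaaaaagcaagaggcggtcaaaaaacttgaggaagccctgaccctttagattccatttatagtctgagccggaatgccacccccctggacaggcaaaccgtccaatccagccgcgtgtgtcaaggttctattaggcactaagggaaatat
Myl4: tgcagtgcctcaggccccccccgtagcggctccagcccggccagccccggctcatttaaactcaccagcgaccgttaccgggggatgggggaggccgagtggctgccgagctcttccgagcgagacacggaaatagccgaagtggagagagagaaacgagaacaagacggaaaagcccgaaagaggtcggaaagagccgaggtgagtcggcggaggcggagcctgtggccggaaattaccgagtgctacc
Myh4: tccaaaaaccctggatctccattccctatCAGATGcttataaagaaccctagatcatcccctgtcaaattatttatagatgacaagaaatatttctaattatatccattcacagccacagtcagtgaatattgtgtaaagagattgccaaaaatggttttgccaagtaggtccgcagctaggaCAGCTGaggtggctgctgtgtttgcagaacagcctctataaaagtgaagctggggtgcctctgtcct

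An E-box was present in the Mylpf, Myh3 and Myl1 windows, 1 each, starting at position -51, -191 and -224 from the start, and in 66.2% of all 32851 windows of this length, so most windows hold one. The Myh4 window held 2. The form CAGCTG, a subset of those E-boxes, was found in Mylpf and Myl1, in Myh4 at -67, and in 13.0% of all windows. Among the windows shown, the TATAAA element (either strand) was found at -29 in Myh3, at -95 in Myl1, at -31 and at 2 further places in Myh4, and in 12.4% of windows. CATTCC, the MCAT element bound by TEAD factors (either strand), was found at -80 in Myl1, at -231 in Myh4 and in 12.6% of windows. The MEF2 site was searched in a strict form only, which was in none of the member windows and in 0.508% of all windows. Looser forms of the MEF2 site were not searched, so these windows may still hold some. The CArG box, bound by serum response factor, was in the Myh4 window alone among the members, and in 1.47% of all windows. The Myl4 window held none of the motifs searched, although the gene was called lower. For Mylpf, Myl1 and Myl4 the annotated start lies inside the gene's full span, 2760, 2876 and 4646 bases from its outer end, and which start these cells use was not tested.

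Genes for proteins that build and bind the thick filament included some of the deepest falls beside the myosins, Mybph, Myom2 and Smyd1. Of 13 measured genes on this list 7 were tested, and 3 were called lower and 1 higher, with a median log2 change of -0.30 over those tested (all probe sets tested: -0.0091; by gene, 14.5% of 10685 were called lower and 20.7% higher). Mybph, a myosin-binding protein, went from 244.2 ± 24.7 to 21.3 ± 17.5 (SD, n = 3), a log2 change of -2.90 (limma adjusted p = 1.0e-05), and it too passed the filter only through its untreated arrays. Myom2, which crosslinks thick filaments at the M-band, changed by -1.32 and Smyd1, a methyltransferase that binds muscle myosin during assembly, by -1.09 (limma adjusted p = 1.2e-07 and 2.6e-05). For Myom2 the other 2 tested probe sets were called lower too, and for Smyd1 2 of 4. The chaperone Hsp90aa1 rose by 0.28 (limma adjusted p = 0.0031), but by only 0.03 after quantile normalization (adjusted p = 0.57). Without the filter 6 of the 13 genes were called lower and 1 higher (6.26% and 6.59% of all probe sets). Of those below the filter, 3 are named after their values were seen. Unc45b, the muscle chaperone that folds the myosin motor, read 23.0, 21.9 and 22.7 untreated and 0.9, 1.0 and 0.7 with pyruvate (-1.19, limma adjusted p = 0.00046). Trim63 changed by -1.32 and Myom3 by -0.89 (limma adjusted p = 0.00055 and 0.013).

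Other striated myosins and their kinases were mostly dim. Of 8 measured genes 3 were tested, with 2 called lower and 0 higher, where by gene 14.5% of 10685 were called lower and 20.7% higher. Both genes passed the filter only through their untreated arrays, so this count carries no weight of its own. Mylk2, the skeletal muscle kinase that phosphorylates the fast regulatory chain, went from 52.3 ± 14.8 to 30.2 ± 6.84 (-0.55, limma adjusted p = 0.040). Mylk4, a related kinase, changed by -0.50 (limma adjusted p = 0.034). Both calls were lost without the filter (adjusted p = 0.14 and 0.12), and Mylk2 also after quantile normalization (adjusted p = 0.065). Myl3, the slow and ventricular essential chain, was at 39.4 ± 6.01 and 38.4 ± 13.9 (adjusted p = 0.86). Myh13 and Myh15 had no probe set with a single symbol.

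Non-muscle and smooth muscle myosin II, which drives contraction of the cell cortex and stress fibres, moved both ways and by less than 0.5. Of 12 measured genes 10 were tested, 4 called lower and 3 higher (14.5% and 20.7% of all genes tested), with a median of -0.12. The non-muscle heavy chain Myh9 rose from 2142 ± 69.0 to 2831 ± 85.0 (0.40, limma adjusted p = 0.00010), on 2 of its 5 tested probe sets counting the brightest. The regulatory chain Myl12a rose by 0.38 (adjusted p = 0.00083), yet by 0.04 after quantile normalization (adjusted p = 0.50), and its other probe set was not called. The myosin phosphatase subunits Ppp1cb and Ppp1r12a fell by 0.45 each (limma adjusted p = 9.2e-05 and 9.4e-05), with 3 of 3 and 1 of 3 other tested probe sets called lower. No test of the difference between this list and the sarcomeric genes was made.

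Among 17 measured regulators of myosin genes, 14 were tested, 7 called lower and 3 higher (14.5% and 20.7% of all genes tested), with a median of -0.31. Myogenin (Myog), the factor that starts terminal muscle differentiation, changed most, by -2.96 (limma adjusted p = 1.1e-08), from 1701.7, 1725.5 and 1787.1 untreated to 205.6, 254.9 and 175.5 with pyruvate. Vgll2, a TEAD cofactor of muscle, fell by 1.10, and the MyoD inhibitors Id1 and Id3 rose by 1.23 and 1.00.

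**Figure D3:**
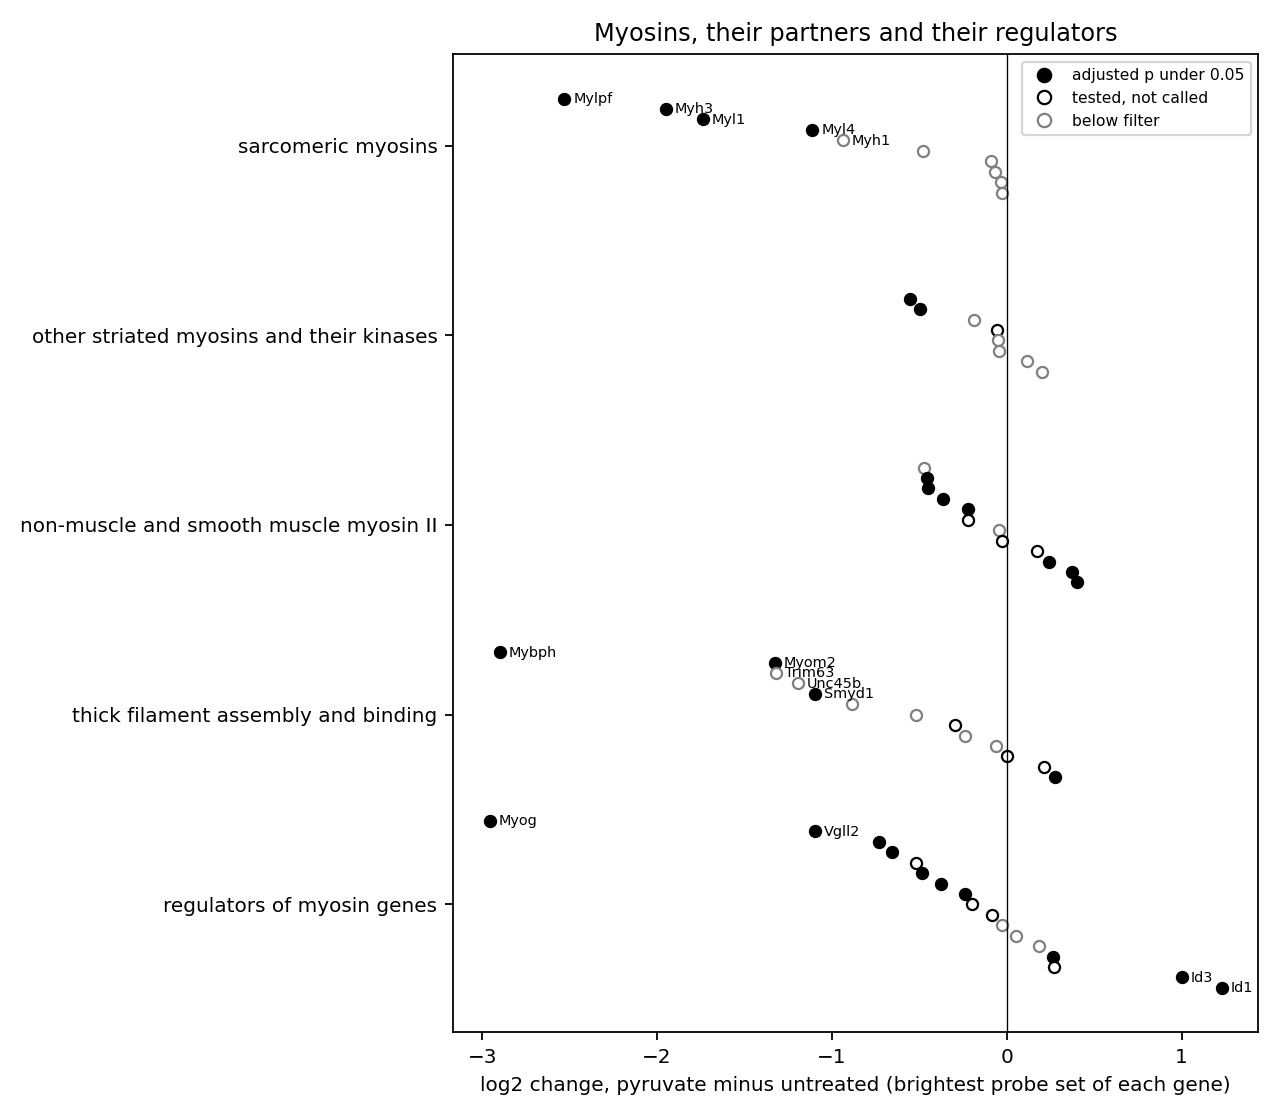
Log2 change with pyruvate of the brightest probe set of each gene, for the 10 sarcomeric myosins and the 4 lists of related genes, with filled points for adjusted p under 0.05, open black points for tested genes not called and open grey points for genes below the filter, and names at absolute changes of 0.9 or more. Mybph and Myog lie in the same range as Mylpf, while non-muscle myosin II genes lie within 0.5 of 0.

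The genes whose arrays ran closest to Myh3 and Myl1, the brightest heavy and light chain, were picked among 10681 other genes by the root mean square difference of log2 values over the 6 arrays, each centred on its untreated mean. Nearest to Myh3 were Tnni2, fast troponin I (0.094), Ttn, the giant filament protein titin (0.13), and Mymk, the fusion protein myomaker (0.13). Nearest to Myl1 were Mymx, the fusion partner of myomaker (0.11), Pdk1, a kinase that inhibits pyruvate dehydrogenase (0.11), and Mest, an imprinted gene (0.12). Their log2 changes lay between -2.04 for Tnni2 and -1.69 for Pdk1. Changes near those of Myh3 and Myl1 follow from the way these genes were picked, so they carry no weight of their own.

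The label of the cells was checked with markers. Of 8 myoblast markers 7 were above the filter in both groups, with Pax7 below it, and the summed signal of all 8 was 12219 to 12538 untreated and 12265 to 13307 with pyruvate. Chrna1 was the largest part of that sum and went from a mean of 3787 to 5281, so the sum hides falls in other markers. The markers moved both ways, with 4 of 7 tested called lower by limma (Vcam1 by -0.67, Myf5 by -0.65, Cdh15 by -0.39 and Itga7 by -0.21) and 2 higher (Chrna1 by 0.47 and Myod1 by 0.26). Of all genes tested, 14.5% were called lower and 20.7% higher. Cardiac markers that would accompany Myl4 and Myh7 were low: 1 of 6, Nppb, passed the filter, Myh6 and Myl7 had means under 8, and the sum was 146.9 to 164.8 untreated and 101.8 to 116.2 with pyruvate. Smooth muscle markers summed to 3982 to 4208 and 5245 to 6367, mostly Acta2, with Cnn1 and Myh11 below the filter. Acta2 was called higher (0.51, limma adjusted p = 0.00034). Smtn (-0.23, limma adjusted p = 0.039) and the cardiac marker Nppb (-0.42, limma adjusted p = 0.012) were called lower. Fibroblast markers summed to 487.5 to 504.9 and 426.6 to 489.9, adipocyte markers to 132.4 to 175.6 and 184.9 to 243.3, and macrophage markers to 136.0 to 166.4 and 147.9 to 203.9, with Thy1, Lum, Adipoq and Ptprc at group means of 6.73 to 11.3. Pdgfra, Dcn, Col1a1, Pparg, Cebpa, Cd68 and Csf1r passed the filter. Of these Cebpa alone was called on its brightest probe set, rising from 36.6 to 78.3 (0.84, limma adjusted p = 0.00040). For Csf1r, 1 of the 2 other tested probe sets was called higher. The part of these shifts in the myosin results was not tested. In RNA from a whole culture, fewer differentiating cells and less myosin RNA per cell cannot be told apart.

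**Figure D4:**
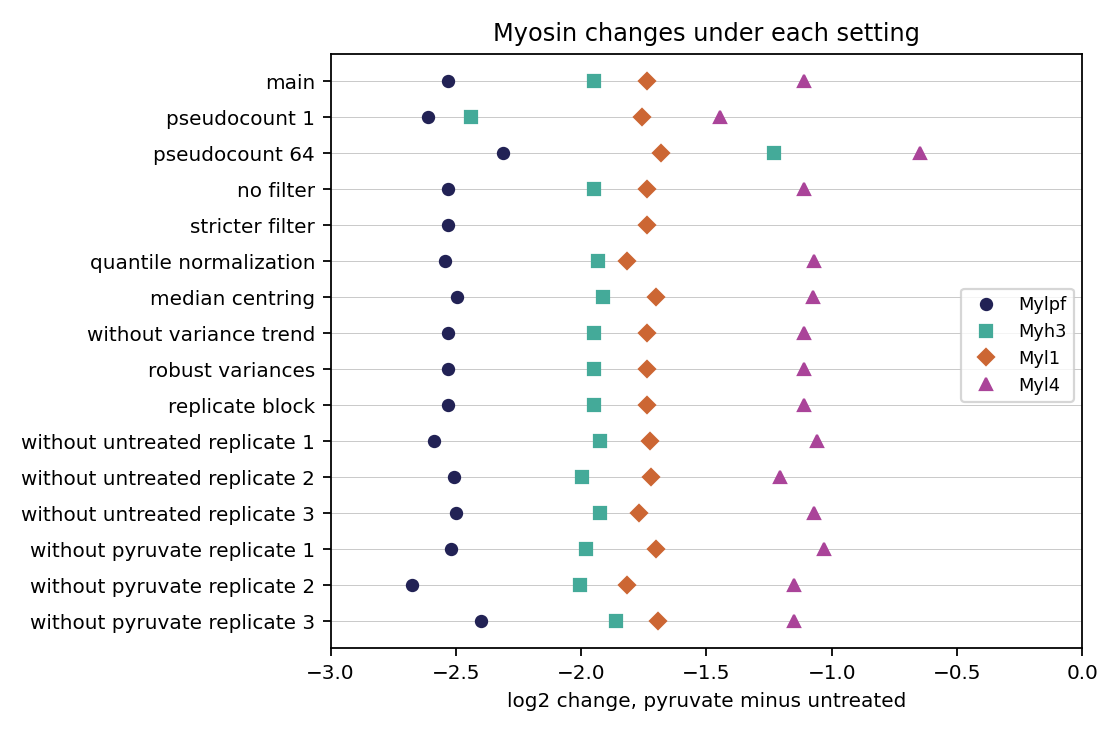
Log2 change of the brightest probe set of Mylpf, Myh3, Myl1 and Myl4 (x axis) under each processing setting (y axis), with gaps where a gene did not pass the filter. All points lie below 0, between -2.67 and -0.65, and Myh3 and Myl4 move most with the pseudocount.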

How the data were processed

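The authors deposited MAS5 signals, per the submitters' processing notes, as intensity on a linear scale for 45101 probe sets on 6 arrays. MAS5 merges matched and mismatched probes into 1 signal, and its settings were not stated. Trimmed by 2% at either end, the mean signal was 150.0 on each array, so the authors had scaled them alike, and a change in total RNA cannot be seen. Array medians were 30.3 to 33.0. Arrays carry no read depth, and their number limits precision. Pairs of arrays correlated at 0.985 to 0.991 across probe sets within groups and 0.979 to 0.983 between them, and no pair shared over 0.953% of values.

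After 64 control probe sets were dropped, pyruvate was compared with untreated in limma 3.58.1 (R 4.3.3; lmFit, two-sided eBayes with a variance trend) on log2(signal + 16), adjusting by Benjamini-Hochberg over the probe sets tested. This scale understates changes of dim genes. Detection calls were not used here. A gene is represented by its brightest probe set. Related genes are named by the largest absolute change, up to 4 past the threshold per list. The members and lists were chosen with earlier results of these data known. In data simulated for this comparison (22519 probe sets), the recovered share was 42.9% of 49 probe sets for a log2 change of 0.5, 86.4% of 81 for 1 and 98.6% of 70 for 2. Of the 171 called there, 11 had not been changed. Far fewer probe sets were changed there than the 7250 called in the data, so the recovered shares may differ in the data. Promoter sequences are RefSeq's. Figures were drawn with matplotlib 3.10.9.

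The alternatives were other pseudocounts, filters, scalings and variance models, the replicate number as a block, and each array left out. Combinations with no filter for dim Myh1 and Myl6b were chosen after seeing the data.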

Additional observations from a re-analysis of the deposited data

How the results depend on the processing

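Mylpf, Myh3, Myl1 and Myl4 (brightest probe sets) kept their direction and call under every setting in which they passed the filter, with log2 changes from -2.67 to -2.31, -2.44 to -1.23, -1.82 to -1.68 and -1.45 to -0.65. With the stricter filter, at the 75th percentile, 2 myosin probe sets and 2 genes were tested and called lower, Mylpf and Myl1, since the others were too dim to enter. The number of all probe sets called was 7250 and ranged from 5377 to 7315, and 4 myosin probe sets stayed called with each array left out. The second Myl4 probe set had no settled sign: 0.022 after quantile normalization, 0.023 after median centring, and with single arrays left out from -0.094 to 0.11. The difference between Myh3 and Myl1 turned to 0.45 with a pseudocount of 64, and lay between -0.28 and -0.16 with arrays left out.

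Deviations from the group means correlated at -0.0088, 0.014 and 0.021 between same-numbered samples, and at -0.026 to 0.011 between the others. With 3 arrays per group these values cannot settle whether the replicate numbers pair the samples, and the labels do not say. With the replicate block 4 myosin probe sets were called lower, as without it.

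Signals under about 20 leave the Myh2, Myh4, Myh7 and Myh8 transcripts unresolved.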
